A study of Homo sapiens with 8 samples.

Results

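The 10 genes described here are 7 matrix metalloproteinases (MMP1, MMP2, MMP3, MMP7, MMP10, MMP13 and MMP14) and 3 tissue inhibitors of metalloproteinases (TIMP1, TIMP2 and TIMP3), taken by name from the 22395 genes that the array measured with a probe set of a single symbol. They were measured in PC3, DU145, C4-2B and VCaP, established human prostate cancer cell lines, on 8 Affymetrix arrays. In each line, 1 culture received siRNA against DNAPK (siDNAPK; the titles call it si7DNAPK) and 1 received non-targeting siRNA (control), and cells were harvested 48 hours after transfection. C4-2B and PC3 were grown in RPMI1640, DU145 and VCaP in DMEM, so a difference between those pairs of lines cannot be told apart from one of medium. The question was how transcription responds to loss of DNA-PK, the kinase whose catalytic subunit PRKDC encodes. Values are log2 RMA signals, in which 1 unit is a 2-fold step, and each has no replicate within its line and treatment.

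Matrix metalloproteinases are zinc-dependent endopeptidases that cut collagens, laminins, fibronectin and other proteins outside the cell. Most are secreted as inactive precursors that are opened by other proteases, and TIMPs block the active enzymes by binding at the catalytic site. In carcinomas much of the MMP message is known to come from fibroblasts and leukocytes of the stroma, cells that a cultured line lacks.

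PRKDC signal on the siDNAPK array was between 17.4% of control, in C4-2B, and 65.0%, in VCaP. KLK3, which encodes PSA, read 10.24 (siDNAPK) and 10.12 (control) in C4-2B but 4.75 and 4.46 in VCaP, a line known to express it. ERG went with the label of VCaP, at 8.65 and 8.57 there and at most 3.56 in the other lines. TMPRSS2 read 8.68 and 9.03 in VCaP, 9.46 and 9.56 in C4-2B, 7.17 and 6.72 in PC3, and 3.37 and 2.18 in DU145. It thus had signal in VCaP but did not set that line apart. VIM read between 7.22 and 8.19 in PC3 and DU145 and at most 4.29 in the other lines. Without the VCaP arrays, a check chosen after seeing the data, the 5 members called below as higher in DU145 and PC3 were called again, with differences of 2.47 (MMP1), 1.18 (MMP13), 3.47 (MMP14), 5.05 (TIMP1) and 1.59 (TIMP2). Of stromal markers, 2 of 5 for fibroblasts and 3 of 6 for macrophages and leukocytes lay above the filter level on most arrays, and their summed log2 signals ran from 12.1 to 13.8 (siDNAPK) and 12.8 to 15.4 (control) for fibroblasts and from 15.7 to 19.4 (siDNAPK) and 16.1 to 19.7 (control) for leukocytes. COL1A1 read 3.63 to 5.06, THY1 at most 3.55, CSF1R 2.44 to 3.25 and ITGAM 2.35 to 3.15. Of markers chosen after their values were seen, CD68 moved with the contrast of lines used below, at 7.06 to 7.94 in PC3 and DU145 and 4.60 to 5.04 in C4-2B and VCaP (difference 2.72, limma adjusted p = 3.71e-06). LUM read 3.50 (siDNAPK) and 4.62 (control) in VCaP and at most 2.35 elsewhere, DCN 1.38 to 1.68 and PTPRC 1.30 to 2.02. In the same contrast ITGAM was called the other way (-0.33, limma adjusted p = 0.0368). COL1A1 was called higher (0.53, limma adjusted p = 0.0108), and CSF1R (-0.08) and THY1 (-0.16) were not called. Of endothelial markers, KDR was called higher (1.57, limma adjusted p = 1.45e-04) and CDH5 was not called (-0.07). KDR lay below the filter level in C4-2B and VCaP. The part of such cells in the results was not tested.

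MMP2, MMP3, MMP7 and TIMP3 had low signals in every line, and MMP1, MMP13, MMP14, TIMP1 and TIMP2 had ranges over 3 log2 units. Genes with a mean over 8 arrays at or below 2.51, the 25th percentile of all gene means, were not tested. This filter set aside MMP7 and MMP10 and passed the other 8 members, and MMP3, with a mean of 2.53, was just inside it. MMP10, with 2.46, was just outside. MMP1 passed through its signal in PC3 and DU145, since it stood above 2.51 only on those 4 arrays. There is no detection call for these arrays, and a signal near the filter level is not shown to be expression.

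**Figure D1:**
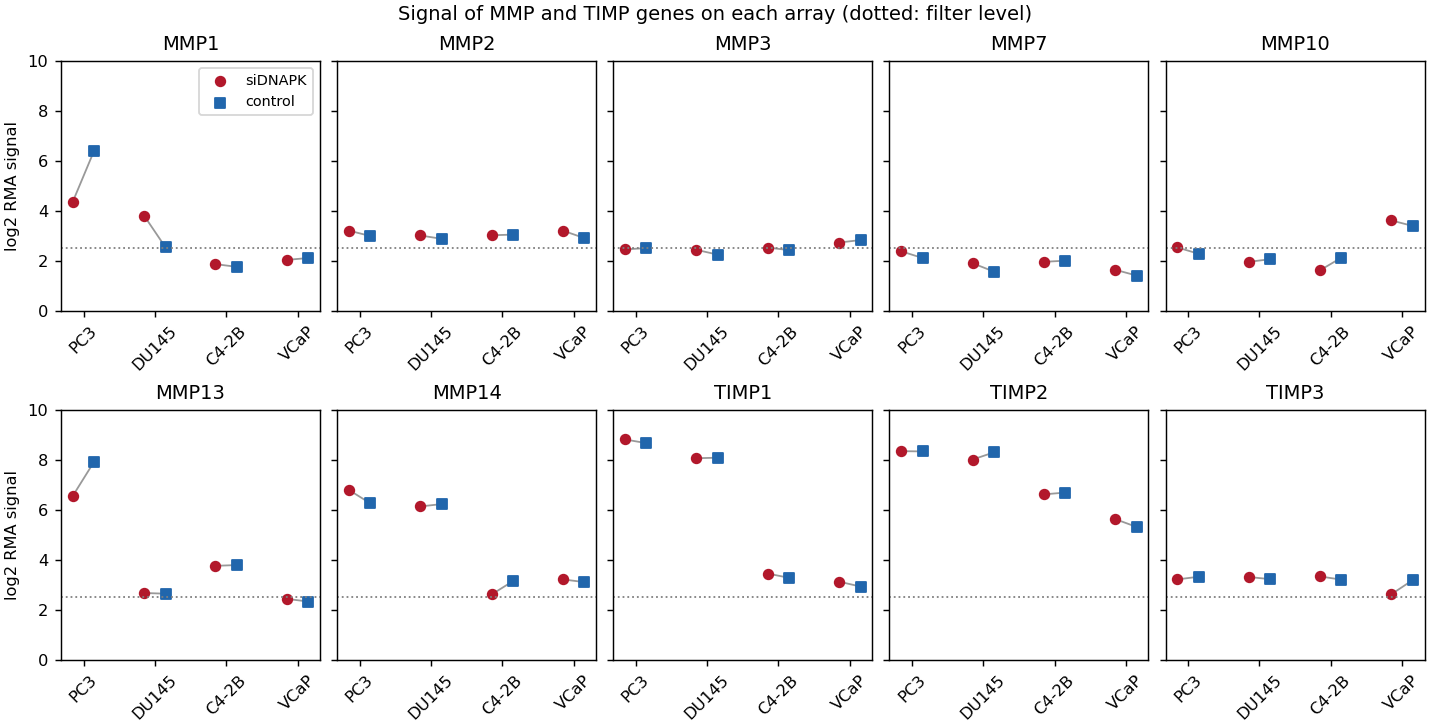
Each panel plots the log2 RMA signal (vertical axis) of 1 gene in 4 lines (horizontal axis), with siDNAPK as circles and control as squares, 1 array each, and the dotted line marks the filter level of 2.51. TIMP1 and MMP14 stand high in PC3 and DU145, MMP13 stands high in PC3, and MMP2, MMP3, MMP7 and TIMP3 stay between 1.42 and 3.34 on every array.

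The levels of 5 of the 8 tested members differed between lines (limma moderated F-test, adjusted p under 0.05), against 62.6% of all genes tested, a share near theirs. The same 5, MMP1, MMP13, MMP14, TIMP1 and TIMP2, had a higher mean over DU145 and PC3 than over C4-2B and VCaP. In that contrast 22.7% of all genes were called higher and 21.4% lower. None of the 8 was called lower. These counts are descriptive: MMP1 passed the filter only through its PC3 and DU145 arrays, so its call follows in part from that selection and adds nothing to the count. A higher mean need not hold for both lines. For MMP13 it rested on PC3, and DU145 was below C4-2B (difference -1.12). For MMP1, DU145 was called above neither C4-2B nor VCaP with all arrays. In these fits the siDNAPK and control arrays of a line served as its 2 measurements, after removal of the mean treatment difference, so the spread is that between cultures given different siRNAs.

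The interstitial collagenases were the members with signal mostly in PC3. MMP1, collagenase 1, cuts fibrillar collagens and lies in a run of MMP genes on chromosome 11. In PC3 it read 4.37 (siDNAPK) and 6.42 (control), in DU145 3.81 and 2.54, in C4-2B 1.87 and 1.76, and in VCaP 2.04 and 2.12. PC3 was highest under either siRNA, and both C4-2B and VCaP lay below the filter level. Averaged over both arrays, PC3 stood above DU145 by 2.22 (95% interval 0.75 to 3.69, limma adjusted p = 0.0326), above VCaP by 3.32 (adjusted p = 0.00434) and above C4-2B by 3.58 (adjusted p = 0.00351). DU145 minus VCaP was 1.10 and DU145 minus C4-2B was 1.36, neither called with all arrays (adjusted p = 0.205 and 0.141). Both were called without either PC3 array, at 1.10 and 1.36, and the second also without the DU145 control array, at 2.33. As C4-2B and VCaP lay below the filter level, the sizes of these differences depend on background signal there. The call between PC3 and DU145 was lost without the PC3 control array (0.979), without the DU145 control array (1.25) and without either C4-2B array (2.22 each).

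MMP13, collagenase 3, is best known from cartilage and bone, where it cuts type II collagen. It read 6.57 (siDNAPK) and 7.94 (control) in PC3, 3.77 and 3.80 in C4-2B, 2.68 and 2.65 in DU145, and 2.45 and 2.34 in VCaP. The order PC3, C4-2B, DU145, VCaP held under both siRNAs. PC3 exceeded C4-2B by 3.47 (95% interval 2.66 to 4.28, adjusted p = 2.18e-04), a ratio of signals of 11.1, and exceeded VCaP by 4.86 (adjusted p = 3.57e-05), where the VCaP signal lay below the filter level and the size depends on background. DU145 was below C4-2B by 1.12 (difference -1.12, adjusted p = 0.0413), and C4-2B was above VCaP by 1.39 (adjusted p = 0.0180). Both smaller calls were lost without either C4-2B array (-0.925 and -1.31 for the first, 1.20 and 1.58 for the second). The first was also lost without either DU145 array (-0.886 and -1.35), and the second without the VCaP control array (1.11). DU145 and VCaP, next to each other in the order, did not differ past their spread (0.28, adjusted p = 0.569). The mean of DU145 and PC3 exceeded that of C4-2B and VCaP by 1.87 (adjusted p = 6.36e-04), and this rested on PC3: without that line the difference was -0.421 and was not called (adjusted p = 0.0642).

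The stromelysins and matrilysin gave low signals. MMP3, stromelysin 1, degrades proteoglycans and laminin and can activate other MMP precursors. It lay between 2.25 and 2.84 on the 8 arrays and did not differ between lines in the F-test (adjusted p = 0.162). MMP10, stromelysin 2, read 3.62 (siDNAPK) and 3.40 (control) in VCaP, 2.54 and 2.29 in PC3, 1.97 and 2.07 in DU145, and 1.63 and 2.13 in C4-2B. Both VCaP arrays lay above all others, but as the gene was below the filter no test was made. MMP7, matrilysin, is a small protease of glandular epithelia that lacks the hemopexin domain. It stayed between 1.42 and 2.39 and below the filter level on every array.

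MMP1, MMP3, MMP7, MMP10 and MMP13 are 5 of the 9 MMP genes that lie side by side on chromosome 11, in the order MMP7, MMP20, MMP27, MMP8, MMP10, MMP1, MMP3, MMP12, MMP13 (RefSeq gene table, GRCh38.p14). MMP3 and MMP12, which lie between the genes for both collagenases, did not share their PC3 signal: MMP12 read 1.58 (siDNAPK) and 1.58 (control) there, and MMP3 read 2.46 and 2.51. The 4 MMP genes of the run that are not members (MMP8, MMP12, MMP20 and MMP27) lay between 1.58 and 2.59 on all 8 arrays. The flanking genes had signal in every line, with BIRC2 between 6.28 and 7.10 and DCUN1D5 between 6.68 and 7.13. WTAPP1, a pseudogene whose span overlaps MMP1 and MMP3, read 2.08 (siDNAPK) and 2.12 (control) in PC3. Whether the probes tell the strands of overlapping genes apart was not tested.

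**Figure D2:**
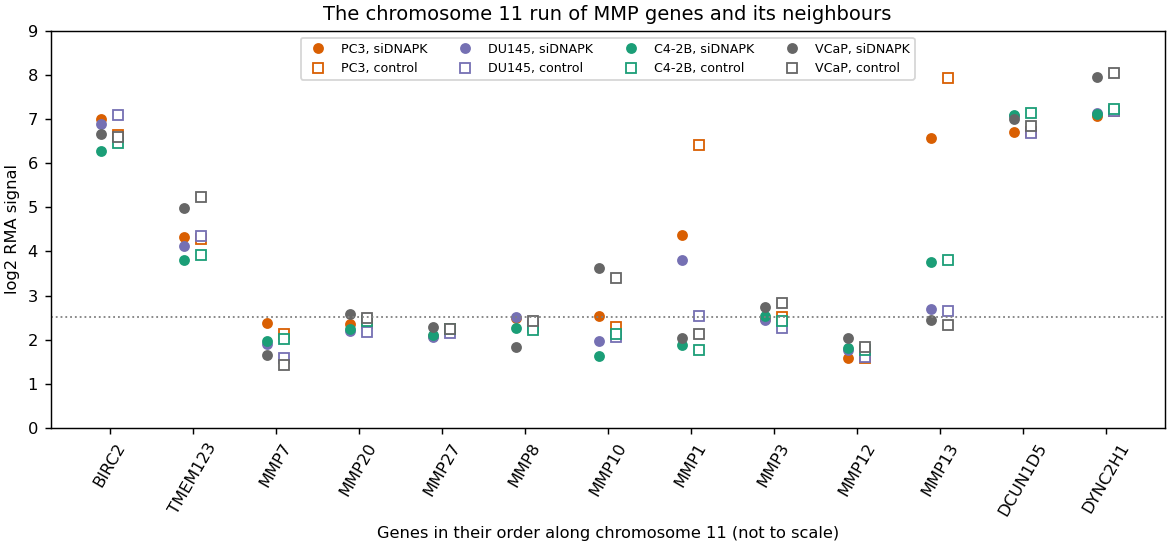
The log2 RMA signal (vertical axis) is plotted for genes in their order along chromosome 11, evenly spaced, in 4 lines by colour, with siDNAPK as filled circles and control as open squares. MMP1 and MMP13 in PC3 reach 6.42 and 7.94, the 4 MMP genes that are not members stay at or below 2.59, and the flanking genes BIRC2, TMEM123, DCUN1D5 and DYNC2H1 have signal in all lines.

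MMP2, gelatinase A, degrades denatured collagen and type IV collagen of basement membranes. Its signal ranged only from 2.89 to 3.21 over the 8 arrays, and lines did not differ (F-test, adjusted p = 0.83). It was the single member with more than 1 probe set, and the other one, with lower signal, read between 1.31 and 1.84. MMP14, the membrane-anchored MMP that activates the MMP2 precursor together with TIMP2, behaved otherwise. It read 6.80 (siDNAPK) and 6.27 (control) in PC3, 6.15 and 6.24 in DU145, 3.23 and 3.12 in VCaP, and 2.62 and 3.16 in C4-2B. The lines formed 2 sets that did not overlap, with DU145 and PC3 above VCaP and C4-2B by 3.33 in the mean (95% interval 2.93 to 3.74, adjusted p = 6.19e-06), a ratio of signals of 10.1. As VCaP and C4-2B lay near the filter level, the size depends on background signal there. Neighbours within a set did not differ past their spread: PC3 minus DU145 was 0.34 (-0.23 to 0.92) and C4-2B minus VCaP was -0.28 (-0.86 to 0.30).

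TIMP1, an inhibitor of most secreted MMPs, had the widest range of the members, 5.89. It read 8.83 (siDNAPK) and 8.68 (control) in PC3, 8.08 and 8.10 in DU145, 3.46 and 3.29 in C4-2B, and 3.14 and 2.94 in VCaP. The mean of DU145 and PC3 exceeded that of C4-2B and VCaP by 5.21 (95% interval 4.96 to 5.47, adjusted p = 4.19e-07). Signals in C4-2B and VCaP were low, so this size may also depend on background. PC3 also exceeded DU145, by 0.67 (0.30 to 1.03, adjusted p = 0.0154), a call that was lost without either PC3 array or without the DU145 siDNAPK array, with differences from 0.570 to 0.682. C4-2B and VCaP did not differ past the spread (0.34, adjusted p = 0.135). TIMP1 overlaps SYN1, whose own signal ran differently, at 4.38 (siDNAPK) and 4.73 (control) in VCaP and 3.01 to 3.23 in the other lines.

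TIMP2 inhibits MMPs and also bridges MMP14 to the MMP2 precursor. It read 8.36 (siDNAPK) and 8.35 (control) in PC3, 8.02 and 8.31 in DU145, 6.63 and 6.70 in C4-2B, and 5.64 and 5.33 in VCaP, well above the filter level in every line. It was higher in DU145 and PC3 than in C4-2B and VCaP by 2.19 (95% interval 1.88 to 2.49, adjusted p = 1.17e-05). It was also higher in C4-2B than in VCaP, by 1.18 (0.75 to 1.62, adjusted p = 0.00242), whereas PC3 and DU145 did not differ past the spread (0.19, adjusted p = 0.503). TIMP3, which binds the matrix and inhibits ADAM proteases as well, lay between 2.63 and 3.34 and did not differ between lines (F-test, adjusted p = 0.329). Its lowest value was that of VCaP with siDNAPK. Of the genes that overlap these inhibitors, CEP295NL (TIMP2) read 3.60 to 4.22 and SYN3 (TIMP3) 1.79 to 2.86.

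By pairs of lines, PC3 exceeded C4-2B in 5 of the 8 tested members, against 36.2% of all genes that differed in that pair in either direction, and exceeded VCaP in 5 (41.1% of all genes). PC3 exceeded DU145 in 3 (30.5%). MMP1 is counted in these 3 pairs. As it passed the filter only through its PC3 and DU145 arrays, its calls there follow in part from that selection. All shares given here count both directions. DU145 differed from C4-2B in 4 members, higher in 3 and lower in 1 (34.5%), and exceeded VCaP in 3 (41.7%). C4-2B exceeded VCaP in 2 (34.7%). Of these calls, those for TIMP1, TIMP2 and MMP14 between a line of the high set and a line of the low set were kept in each fit that left out 1 array.

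**Figure D3:**
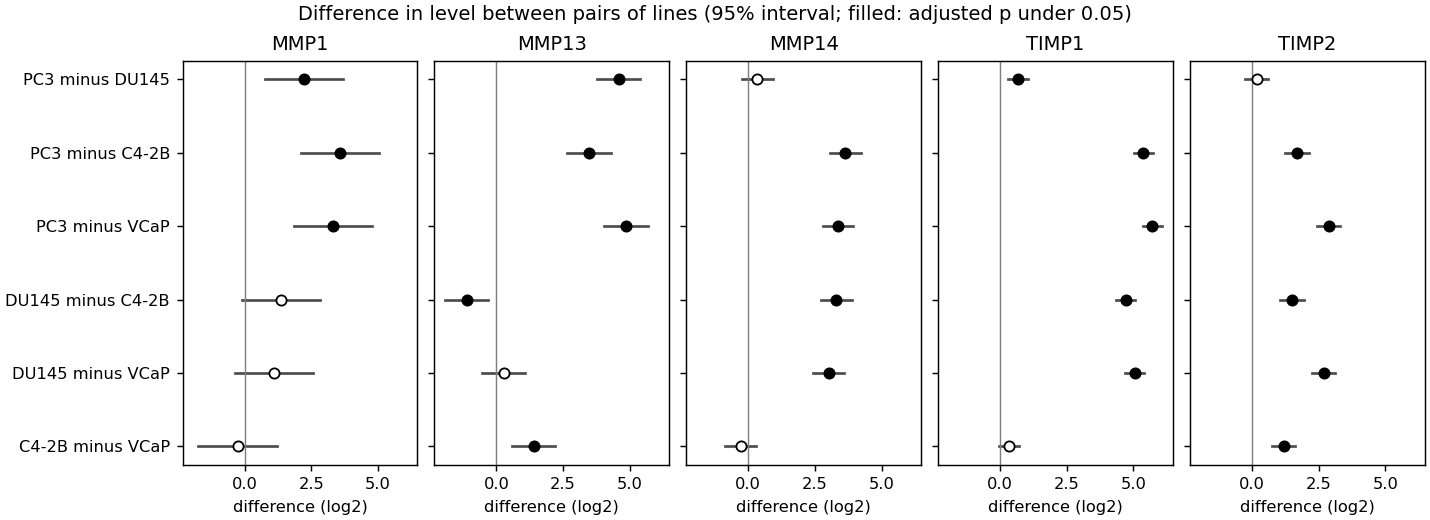
Points give the difference in mean log2 level between the lines named at the left, and bars the 95% interval of the limma fit, for the 5 members that differed between lines. Filled points passed an adjusted p of 0.05. MMP14 and TIMP1 show the same 4 large differences, while MMP13 differs mostly in the pairs with PC3.

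Across the 8 arrays, which come from 4 lines and so hold few independent points, MMP14 and TIMP1 followed each other most closely among the members (Pearson r = 0.988), then TIMP1 and TIMP2 (r = 0.946). MMP13 and MMP14 had r = 0.502. Over all tested genes, the patterns most like MMP14 were those of CLTC, SMAD3 and MIR31 (r = 0.998, 0.997 and 0.997), and those most like TIMP1 were IGFBP6, IER3 and SERPINB1 (r = 0.997, 0.997 and 0.995). MMP13 was nearest to SHC4, NPY1R and PTK6 (r = 0.992, 0.992 and 0.991), MMP1 to ZNF593, PRR11 and TATDN1 (r = 0.985, 0.975 and 0.972), and TIMP2 to PLS3, RNU5A-8P and HLA-E (r = 0.994, 0.993 and 0.993).

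Promoters are shown for MMP14 and TIMP1, whose levels ran together over the lines, and for MMP7, a low-signal member of the chromosome 11 run. RefSeq promoter sequences (GRCh38.p14) matched 5 of the 10 members: MMP7, MMP10, MMP14, TIMP1 and TIMP3. The 250 bases before the annotated start are printed 5′ to 3′ on the gene's strand. Capitals mark matches, on either strand, to the AP-1 motif TGAGTCA, its variant TGAGTAA, the GC box GGGCGG and the ETS motif AGGAAG. These motifs do not overlap each other in the sequences printed.
MMP14, chr14:22836335-22836584, plus strand: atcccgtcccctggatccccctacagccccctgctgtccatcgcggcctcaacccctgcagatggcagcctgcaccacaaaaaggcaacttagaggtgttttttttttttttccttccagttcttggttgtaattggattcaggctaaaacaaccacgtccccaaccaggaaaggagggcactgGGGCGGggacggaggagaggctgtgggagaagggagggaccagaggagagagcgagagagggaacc
TIMP1, chrX:47582186-47582435, plus strand: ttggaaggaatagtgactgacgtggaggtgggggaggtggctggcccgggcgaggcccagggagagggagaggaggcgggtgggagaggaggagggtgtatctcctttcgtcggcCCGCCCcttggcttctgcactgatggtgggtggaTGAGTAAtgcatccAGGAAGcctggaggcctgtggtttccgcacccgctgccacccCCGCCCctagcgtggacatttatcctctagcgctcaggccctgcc
MMP7, chr11:102530748-102530997, minus strand: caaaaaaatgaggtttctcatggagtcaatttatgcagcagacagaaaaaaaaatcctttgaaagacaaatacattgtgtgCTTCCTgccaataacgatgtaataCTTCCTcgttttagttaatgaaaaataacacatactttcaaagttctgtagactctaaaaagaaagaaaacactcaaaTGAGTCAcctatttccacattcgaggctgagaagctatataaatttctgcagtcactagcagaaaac

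The MMP14 window held 1 GC box, at -66 to -61 from the start, and none of the other motifs. TIMP1 held the AP-1 variant at -101 to -95, the ETS motif at -87 to -82 and 2 GC boxes. MMP7 held TGAGTCA at -67 to -61 and the ETS motif at 2 places. The MMP10 window held none of the 4 motifs and that of TIMP3 held 5 GC boxes. Of 35116 promoter windows of the same length, 4.2% held TGAGTCA, 2.21% the variant, 42.6% the GC box and 28.7% the ETS motif on either strand. A match is a string of letters, and binding was not measured. Among the genes for factors of these motifs, FOSL1, an AP-1 subunit (named after its values were seen), read 10.29 (siDNAPK) and 10.19 (control) in PC3, 8.68 and 7.81 in DU145, 4.10 and 3.21 in VCaP, and 3.06 and 3.67 in C4-2B. ETS1 read between 6.02 and 6.77 in PC3 and DU145 and between 1.92 and 2.64 in VCaP and C4-2B. Of 16 tested genes in the list of AP-1 and ETS factors, 9 were called higher in DU145 and PC3, against 22.7% of all genes. They include FOSL1, ETS1 and RUNX2 (0.39, limma adjusted p = 0.0484). RUNX2 is in the list but is neither an AP-1 nor an ETS factor. ETS1 lay below the filter level on most C4-2B and VCaP arrays, so its call follows in part from the filter. The 1 factor called lower was JUND (-0.81, limma adjusted p = 0.00146), against 21.4% of all genes. JUN (-0.28), FOS (0.03) and FOSB (0.28) were among those not called.

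With siDNAPK against control over the 4 lines, none of the 8 tested members passed (limma with the line as a block, adjusted p = 0.756 to 0.996), and 0% of all 16796 genes were called. PRKDC, the targeted gene, was not called either, at 17.4% to 65.0% of control signal in the 4 lines. The lack of a call therefore does not show that a member is unchanged. An unadjusted p under 0.05 was reached by 1208 genes and by 0 members. With 4 pairs the smallest p of the exact sign-flip test is 0.125, and the lowest among the 10 members was 0.25. Mean differences were small beside the spread over lines for MMP1 (-0.19 ± 1.38, SD, n = 4 lines), MMP13 (-0.32 ± 0.71) and MMP14 (0.00291 ± 0.44). TIMP1 had the narrowest spread, 0.12 ± 0.10, with a 95% interval of -0.13 to 0.38, and TIMP2 had -0.00898 ± 0.25 (-0.32 to 0.30). For the remaining members the means were 0.16 (MMP2), 0.04 (MMP3), 0.20 (MMP7), -0.03 (MMP10) and -0.12 (TIMP3). In no member did all 4 lines share a sign.

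The collagenases had the largest differences within a line, in PC3. MMP1 was lower with siDNAPK by 2.05 on the log2 scale (4.37 with siDNAPK, 6.42 in control), which is 24.2% of control signal and the second lowest difference of 16796 genes in that line. PRKDC itself was next. MMP13 was lower by 1.37 (6.57 with siDNAPK, 7.94 in control), or 38.6% of control, rank 14 from the lowest. These 2 members were past 1, where 1.07% of all genes in PC3 were, in either direction. Other members differed less in PC3: MMP14 was higher by 0.53, and TIMP1 and TIMP2 differed by 0.15 and 0.01. Since each treatment has a single culture per line, culture and siRNA cannot be told apart here.

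In DU145 the MMP1 difference had the opposite sign. It read 3.81 with siDNAPK and 2.54 in control, higher by 1.27 and rank 13 from the highest, from a control signal close to the filter level. It was the single member past 1 there, against 1.12% of all genes. MMP13 differed by 0.03 in DU145, at a signal near the filter level. Among the 16 tested genes in the list of AP-1 and ETS factors, differences in DU145 ran from -0.59 to 1.13, with a median of 0.03. The highest was that of ETV4, an ETS factor (5.26 with siDNAPK, 4.13 in control), and FOSL1 differed by 0.87. In PC3 ETV4 differed by -0.27 and FOSL1 by 0.10. In VCaP ETV4 differed by 0.22, FOSL1 by 0.88 and MMP1 by -0.07. In C4-2B ETV4 differed by -0.34, FOSL1 by -0.61 and MMP1 by 0.11. The part of these factors in the MMP1 differences was not tested.

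No member was past 1 in C4-2B (0.583% of all genes) or VCaP (3.7%). The largest differences there were those of MMP14 (-0.54) and MMP10 (-0.51) in C4-2B and of TIMP3 (-0.57) and TIMP2 (0.31) in VCaP. For MMP14, MMP10 and TIMP3 both arrays of the pair lay at or below 3.20. PRKDC signal left was 17.4% of control in C4-2B, 25.1% in PC3, 47.2% in DU145 and 65.0% in VCaP, and its part in these differences was not tested.

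**Figure D4:**
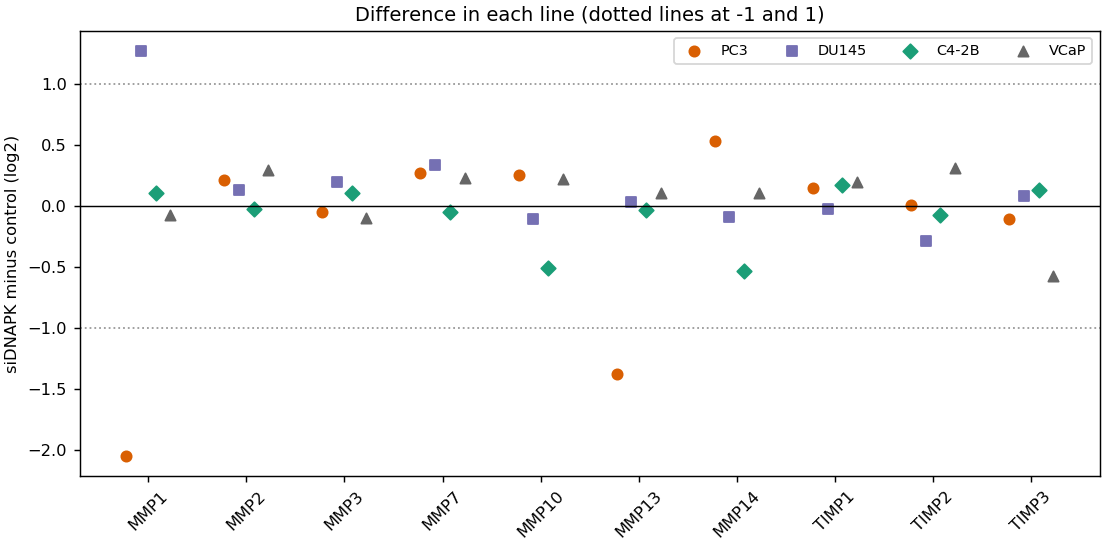
The vertical axis is siDNAPK minus control on the log2 scale for each gene (horizontal axis), with 1 point per line. MMP1 in PC3 (-2.05) and DU145 (1.27) and MMP13 in PC3 (-1.37) lie outside the dotted lines at -1 and 1, and all other points lie inside them.

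Whether the response differed between DU145 with PC3 and C4-2B with VCaP was tested as a contrast of the within-line differences. No member passed, and 0% of all genes did (limma, smallest adjusted p = 0.991, with 621 genes at an unadjusted p under 0.05). For MMP1 the mean response was -0.39 in DU145 and PC3 and 0.02 in C4-2B and VCaP (difference -0.41, 95% interval -2.52 to 1.71). This contrast averages the opposite values of PC3 and DU145, and the difference between those 2 lines has no test. For MMP13 the means were -0.67 and 0.04 (difference -0.71, -1.75 to 0.32). Without PC3 that difference was -0.00957 and without DU145 -1.41, neither called. For MMP14 the means were 0.22 and -0.21 (difference 0.43, -0.36 to 1.23), with 0.112 to 0.755 when single lines were left out.

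Genes that act with these enzymes were read from 7 lists. Of 93 listed genes above the filter, 0 were called for siDNAPK against control, 11 (11.8%) were lower in all 4 lines and 4 (4.3%) were higher in all 4, against 5.89% and 11.5% of all genes. Over all genes, 9469 of 16796 means lay above 0. Among 8 other MMPs tested, 3 means lay above 0 and 5 below, with MMP11 (stromelysin 3) at -0.22 ± 0.14 and MMP16, a membrane-type MMP, at 0.20 ± 0.47 (SD, n = 4 lines). MMP inhibitors and clearance genes had 4 of 10 above 0, led by thrombospondin gene THBS1 (-0.66 ± 0.57) and the proteoglycan gene SPOCK1 (-0.50 ± 0.30). MMP activators had 7 of 15 above 0, with the serine protease gene HTRA1 at -0.51 ± 0.43 and TMPRSS2 at 0.30 ± 0.69. ADAM and ADAMTS proteases had 7 of 23 above 0 and a median of -0.12, where all genes had a median of 0.03, with ADAM8 at -0.64 ± 0.38 and ADAMTS8 at -0.44 ± 0.29.

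Plasminogen activator inhibitors had 2 of 5 above 0, with SERPINE2 at -0.36 ± 0.45 and SERPINI1 at -0.34 ± 0.44. In the list of AP-1 and ETS factors, which also holds RUNX2, 10 of 16 lay above 0. ETS1 was at 0.40 ± 0.25 and JUN at 0.39 ± 0.20, both above 0 in every line. ATF3 ran from -1.20 in VCaP to 0.70 in PC3. MMP substrates had 7 of 16 above 0, with FN1 (fibronectin) at -0.64 ± 0.15 and TNC (tenascin C) at -0.51 ± 0.89, of which -1.81 was in VCaP. None of these named genes passed the test (limma, adjusted p = 0.688 to 0.971). In the level contrast, 10 of 16 substrates, 9 of 16 genes of the AP-1 and ETS list and 8 of 23 ADAM and ADAMTS genes were higher. So were 5 of 15 activators, 4 of 10 inhibitors, 2 of 5 plasminogen activator inhibitors and 2 of 8 other MMPs. Higher here means in the mean of DU145 and PC3. Lower were 4 activators, 2 ADAM and ADAMTS genes, 0 plasminogen activator inhibitors and 1 gene in each of the remaining lists. Of all genes, 22.7% were called higher and 21.4% lower. Some of the genes counted as higher, such as ETV1, VCAN and NID2, lay below the filter level on every C4-2B and VCaP array. They passed the filter through PC3 or DU145, so their calls follow in part from that selection. PLAU, the urokinase gene (named after its values were seen), was among the activators called higher (5.75). It read 8.51 to 8.92 in PC3 and DU145 and 2.75 to 3.26 in C4-2B and VCaP. The 4 activators called lower were KLK4 (-4.54), TMPRSS2 (-4.32), HPN (-2.34) and ST14 (-0.92).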

How the data were processed

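Total RNA (400 ng) from 8 cultures was hybridised to Affymetrix whole-transcript arrays, per the labels' protocols. The deposited values are log2 signals made with oligo and RMA, per the submitters' processing notes, with no version given. RMA makes the arrays' distributions alike, so a difference is relative to the bulk of transcripts. Array medians were 2.94 to 2.99. The number of arrays limits precision.

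Of 53617 probe sets, 23871 had 1 symbol, 1842 several, and 27904 were unnamed here. Symbols were updated through Entrez IDs for 22569 (RefSeq, GRCh38.p14). The probe set with the highest mean stood for each of 22395 genes, and 16796 passed the filter at the 25th percentile. No build for the array design is given in the sources used here.

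Fits were run across all genes with limma 3.58.1 under R 4.3.3 (lmFit, eBayes, 2-sided, Benjamini-Hochberg over all genes within each contrast, threshold 0.05) on line plus treatment, with 3 residual degrees of freedom. They were tested on simulated data. The line pairs the arrays by design. Deviations from group means correlated at 0.864 to 0.918 for arrays of 1 line. For arrays of different lines they correlated at -0.518 to 0.0135. Within a treatment no culture was replicated, so p-values measure how the siDNAPK minus control difference varied over these lines, which may be technical. In the level contrasts they do not measure the spread between lines of the same kind. Named genes are the members, PRKDC, the line markers KLK3, TMPRSS2, ERG and VIM, and from each list the 2 with the largest mean difference and those past 1 within a line, at most 4 a list. Neighbouring and overlapping genes were named by position. CD68, LUM, DCN, PTPRC, FOSL1, FOS, FOSB, JUND, RUNX2, ETV1, VCAN, NID2, PLAU, KLK4, HPN and ST14 were named after their values were seen. Nearest patterns were sought for members with a range of at least 2. Members and lists were chosen with earlier results of these data known. Alternatives were filters, scalings, probe set summaries, an intensity trend, no block, and arrays or lines left out.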

Additional observations from a re-analysis of the deposited data

Results flagged for a closer look

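MMP1 in the PC3 control array stood at 6.42, far from the other 3 controls, of which the nearest was DU145 at 2.54. The MMP1 difference of PC3 minus that of DU145 was -3.31, with 4.37 (siDNAPK) and 6.42 (control) in PC3 and 3.81 (siDNAPK) and 2.54 (control) in DU145. That difference was not tested, since each line has 1 array per treatment. MMP13 stood apart in PC3 in its siDNAPK minus control difference, at -1.37, with the nearest line at -0.03. MMP10 stood apart in the VCaP control array at 3.40, with PC3 next at 2.29. TIMP3 stood apart on the VCaP siDNAPK array at 2.63, with PC3 next at 3.23. In 30 groups of 4 values, 4 such values were found, and chance gives about 1 in 20 groups when the 4 values come from like samples. Here each group holds 4 different lines, and the groups share arrays, so this rate does not apply closely. No excess over chance is shown.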

How the results depend on the processing

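No alternative gave a call for siDNAPK against control or for the difference in response (0 genes each, also with no replicate block), and 5 members differed between lines in the F-test under each alternative except the filter at the median, which left MMP1 untested and gave 4. The 5 members higher in DU145 and PC3 kept that call under every filter, scaling and single array left out where they were tested. MMP3 was called lower with median centring (-0.335). Leaving out whole lines was chosen after seeing the data: without PC3, MMP13 had -0.421, without DU145 MMP2 had 0.0532, and without VCaP TIMP3 had -0.000757, none called. With cyclic loess the mean siDNAPK difference of MMP14 was -0.0342. Leaving out each line, the mean siDNAPK differences ran from -0.671 to 0.434 for MMP1, -0.0144 to 0.0829 for MMP3, -0.459 to 0.0353 for MMP13, -0.174 to 0.182 for MMP14, -0.117 to 0.0843 for TIMP2 and -0.197 to 0.0360 for TIMP3, and the MMP1 response difference from -2.06 to 1.25. Leaving out single arrays, the level contrast of MMP2 ran from -0.0839 to 0.0375, PC3 minus DU145 of MMP14 from -0.0106 to 0.698, DU145 minus VCaP of MMP13 from -0.00771 to 0.558 and C4-2B minus VCaP of MMP14 from -0.639 to 0.0789. Genes called ran from 2716 to 6066 for PC3 minus DU145, 3521 to 6986 for PC3 minus C4-2B, 3349 to 6638 for DU145 minus C4-2B and 3093 to 5529 for C4-2B minus VCaP. Fewer arrays were fitted there. Other causes were not tested. Signals near the filter level limit what MMP3, MMP7, MMP10 and TIMP3 can show.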
